A study of Rattus norvegicus with 12 samples.

Results

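The genes described here are 10 well-known targets of hypoxia-inducible factor 1 (HIF-1) whose products act outside energy metabolism, in mitophagy, growth control, chromatin, peptide signalling and collagen hydroxylation. They were chosen by name, with earlier results of these data known, and all 10 were found among the 26949 genes of the deposited table. The study profiled the hippocampus of male rats that had spent 4 weeks either in normoxia (control) or under chronic intermittent hypoxia (CIH), in which oxygen is lowered in repeated cycles to model sleep apnoea. RNA was sequenced in 3 libraries per group. Both groups had the same tissue and sex and carried no genotype or other agent in the labels. The sources used here do not give the strain, the age, the oxygen levels of the cycles or the time from the last cycle to tissue collection. Nothing in the labels ties each library to an animal of its own, so p-values rest on the spread among these libraries, which may be technical.

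HIF-1 is a transcription factor whose alpha subunit is hydroxylated and destroyed when oxygen is plentiful and accumulates when oxygen is short. It then binds a short core motif in DNA, the hypoxia response element, and raises the transcription of many genes. In the brain these include genes for glucose use, vessel growth and iron uptake, and also the genes treated here, which remove mitochondria, slow growth, demethylate histones, widen vessels or modify collagen.

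The core motif is shown first, because it is a feature these genes could share. RefSeq promoter windows (GRCr8 build, 250 bases before to 50 bases after the start of transcription) matched 8 of the 10 genes, with 9 windows, all but Bnip3l and Ndrg1. They were searched for ACGTG and for GCGTG on both strands. A match to either was present in 7 of the 9 windows, or 77.8%, against 57.0% of 14324 windows of the tested genes. The windows of these genes had a median GC content of 68.3%, against 59.7% for the tested genes. ACGTG was present in 6 windows, or 66.7%, against 23.5%, and GCGTG in 6, or 66.7%, against 45.4%. CACGTG, the E-box that holds ACGTG on both strands, was present in 2 windows, against 8.62%. The Adm window and 1 of the 2 Kdm3a windows held no match. Bases outside the windows were not searched, so a missing match speaks only for the window. A match is a description of letters and no evidence of binding. For each gene with a match before the start, the 30 bases before the start with the most matches (of equal ones, the stretch whose matches lie nearest the start) are printed 5′ to 3′ on the gene's strand, with every match on either strand in capitals.
Bnip3, chr1:203155045-203155074, minus strand: cgcgCACGCgccgCACGTGccaCACGCgcc
Ankrd37, chr16:53001472-53001501, plus strand: ggttccgggctaCACGTGtcactgtttggg
P4ha2, chr10:38743746-38743775, plus strand: agGCGTGcaccgcatACGTGcagcGCGTGg
P4ha1, chr20:27844934-27844963, plus strand: gcactgcgtcctcGCGTGggccagcctggg
Ddit4, chr20:28437087-28437116, minus strand: agacctggaggggGCGTGgtctcgtcggga
Kdm3a, chr4:105233306-105233335, minus strand: cccgggaggctgtGCGTGtcttgtgtgaga
Mxi1, chr1:262348392-262348421, plus strand: cgACGTGtactggcttgggggcgggactac
P4ha2 and Ankrd37 each held 5 matches in the whole window, a number reached by 2.46% of the windows of tested genes. Their windows had a GC content of 73.3% and 64.7%, and no share was taken among windows of like GC content. A CACGTG, held by Ankrd37 and Bnip3 and not by P4ha2, counts once on each strand, here and in the tested genes. Bnip3 held 4, P4ha1 3, Ddit4 2, and Mxi1 and Kdm3a 1 each. In the comparison below, P4ha2 and Ankrd37 both had lower fitted values in CIH and Bnip3 a higher one, and none of them was called. Whether the number of matches goes with the fold change was not tested.

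Library totals were 17170943 to 21941173 estimated counts. Defining markers of the labelled tissue were present in every library: the neuronal gene Rbfox3 at 267.91 to 432.25 TPM (the authors' per-length unit, scaled to 1 fixed total per library), the dentate granule gene Prox1 at 8.77 to 131.7 TPM and the CA1 gene Wfs1 at 73.72 to 575.34 TPM. CIH replicate 1 stood apart with the lowest Prox1 value, and its 8 dentate markers summed to 129.70 TPM against 301.49 to 547.00 TPM in the other 5 libraries. The choroid plexus gene Ttr ranged from 1.10 to 61.88 TPM over the libraries. In bulk tissue, fewer cells of a type and less RNA per cell cannot be told apart.

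These genes spanned a wide range of levels in the hippocampus. Bnip3 had the highest mean over the 6 libraries (92.0 TPM), followed by Ddit4 (89.5 TPM), Bnip3l (83.7 TPM), Mxi1 (70.4 TPM) and Ndrg1 (61.0 TPM). The ranges over the libraries overlapped between neighbours among these 5 genes, so their order is not settled. P4ha2 (42.1 TPM) lay below Ndrg1 without overlap, but its range overlapped that of P4ha1 (38.7 TPM). Kdm3a (22.2 TPM) lay below P4ha1 and above Ankrd37 (3.32 TPM) without overlap in either case. Adm had the lowest mean (1.47 TPM), with a range that overlapped Ankrd37. By mean TPM, Bnip3 exceeded 88.2% of the genes tested, Kdm3a 57.4%, Ankrd37 20.4% and Adm 10.3%.

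**Figure D1:**
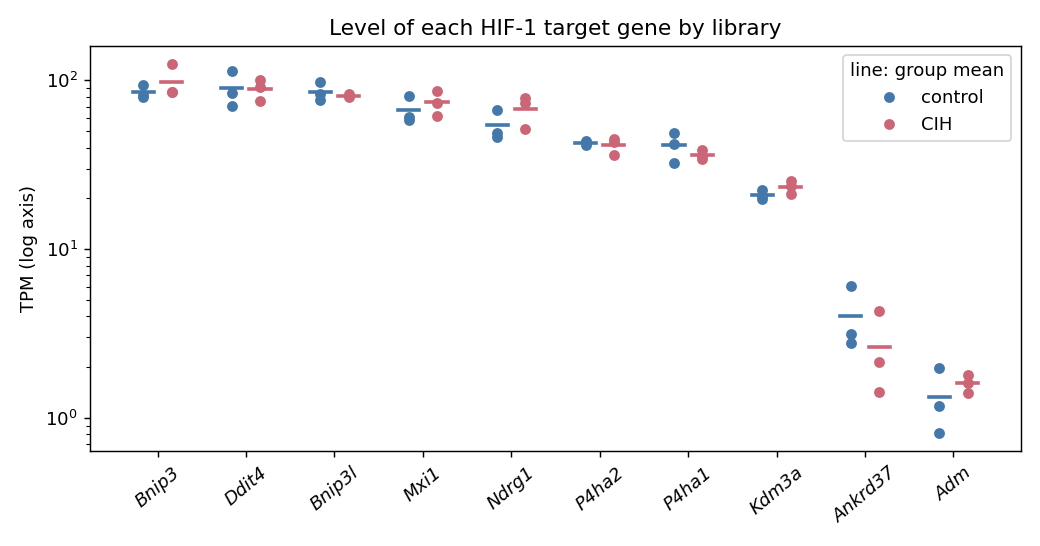
Each point is 1 library's deposited TPM on a log axis, with controls in blue, CIH in red and a line at each group mean. The points of the groups are interleaved for every gene, from Bnip3 at 80.03 to 124.57 TPM down to Adm at 0.82 to 1.98 TPM.

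The comparison asked whether transcripts of these genes differed between CIH and normoxia. None of the 10 passed the test. By edgeR's quasi-likelihood test over 17935 genes (threshold 0.05 after Benjamini-Hochberg adjustment), 0 of the 10 were called (adjusted p = 1.00 for each), and 0% of all genes were called. At an unadjusted p under 0.05 there were 0 of these genes and 1.78% of all genes. DESeq2 also called 0 of the 10. Fitted values were higher in CIH for 6 genes and lower for 4 (5 higher with RLE factors or DESeq2, where Ddit4, near 0, turned sign), where 50.6% of all genes tested had a higher value. The median log2 fold change of the 10 was 0.06, beside 0.0028 for all genes tested, and the median size without sign was 0.17, beside 0.12. The groups did not overlap in CPM (counts scaled to TMM-adjusted library totals) for 2 of the 10, Kdm3a and P4ha2, beside 5.70% of all genes. These lay in opposite directions. The 95% interval of the fold change lay between a halving and a doubling for 8 of the 10, all but Ankrd37 and Adm.

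**Figure D2:**
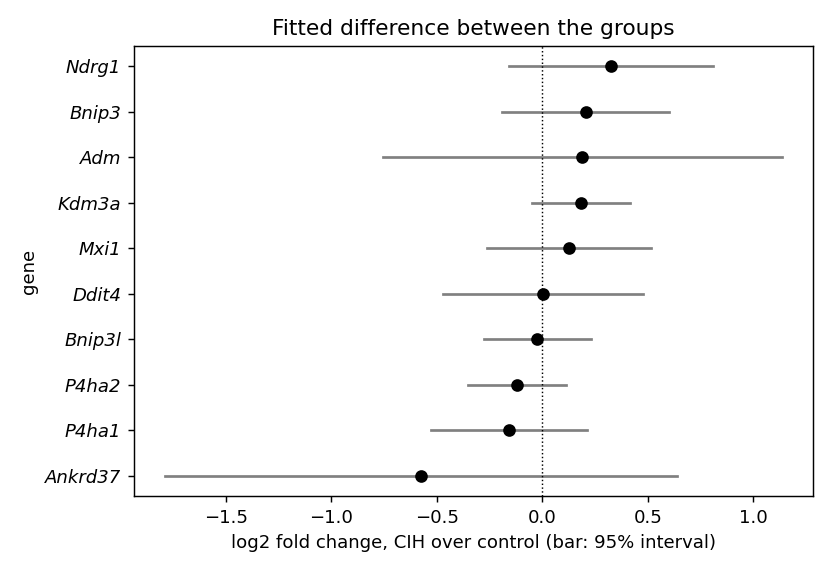
Points are log2 fold changes of CIH over control and bars their 95% intervals, from edgeR with 3 libraries per group. Every bar crosses 0, and the widest belong to Ankrd37 (-1.79 to 0.64) and Adm (-0.76 to 1.13).

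The mitophagy receptors came first. Bnip3 (gene ID 84480) and its paralogue Bnip3l (gene ID 140923), also called Nix, encode outer mitochondrial membrane proteins that bind ATG8 proteins and so draw mitochondria into autophagosomes. Bnip3 had 60.3, 62.4 and 70.1 CPM in the controls and 92.8, 66.2 and 63.3 CPM in CIH replicates 1, 2 and 3. Only CIH replicate 1 lay above all controls, and the other 2 CIH libraries lay within the control range. Controls averaged 64.2 ± 5.15 CPM and CIH libraries 74.1 ± 16.3 CPM (SD, n = 3 each). The log2 fold change was 0.21 (SE 0.17, interval -0.19 to 0.60). Leaving out 1 library moved it between 0.0069 (without CIH replicate 1) and 0.30 (without CIH replicate 3). CIH replicate 1 also had the highest summed level of 8 mural cell markers, at 398.96 TPM against 224.31 to 246.78 TPM elsewhere, and the lowest dentate sum. The part of cell content in the Bnip3 value was not tested.

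Bnip3l had 92.4, 105.7 and 108.3 CPM in the controls and 103.9, 93.4 and 104.2 CPM in CIH. All 3 CIH libraries lay within the control range. Its log2 fold change was -0.02 (SE 0.11, interval -0.28 to 0.23), the third narrowest interval of the 10. In TPM, which allows levels of different genes to be set side by side, Bnip3 stood at 1.05, 0.991 and 0.958 times Bnip3l in the controls and at 1.53, 1.07 and 1.03 times in CIH. The paralogues were thus near parity in 5 libraries, and the ratio in CIH replicate 3 lay below that in control replicate 1.

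Of 17 other mitophagy and ATG8 genes listed, 15 were tested. None was called, 6 had higher and 9 lower fitted values, and the median log2 fold change was -0.02. The smallest p belonged to the ATG8 gene Gabarapl2, with a log2 fold change of -0.30 (SE 0.14), and next to the ATG8 gene Map1lc3b, at 0.11 (SE 0.13). The groups overlapped for both.

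Ddit4 (gene ID 140942), also called REDD1, encodes an inhibitor that acts through the TSC complex to lower mTORC1 activity and is induced by hypoxia, energy stress and glucocorticoids. It had 57.4, 68.6 and 91.5 CPM in the controls and 60.6, 83.5 and 73.6 CPM in CIH. The controls held both the lowest and the highest library, and all CIH values lay between them. Controls averaged 72.5 ± 17.4 CPM and CIH libraries 72.6 ± 11.4 CPM (SD, n = 3 each), with a log2 fold change of 0.00086 (SE 0.20, interval -0.47 to 0.47). The equal means thus came with a control range wider than that of CIH, and a difference of up to about 0.47 on the log2 scale in either direction was within the interval.

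The mTORC1 genes and the glucocorticoid-induced genes gave the setting of Ddit4. Of 16 mTORC1 and TSC genes tested, 0 were called, with 6 higher and 10 lower in CIH and a median log2 fold change of -0.02. Rheb, the GTPase that activates mTORC1, stood at -0.12 (SE 0.10) and Rptor, the mTORC1 scaffold, at -0.11 (SE 0.11). Of 11 glucocorticoid-induced genes tested, 0 were called, with 5 higher and 6 lower. The co-chaperone gene Fkbp5 stood at -0.26 (SE 0.24) and Tsc22d3, which encodes GILZ, at -0.12 (SE 0.12). The glucocorticoid list had its highest mean deviation, 0.20 log2 units, in control replicate 1, which was the library with the lowest Ddit4. Its lowest, -0.20, was in control replicate 2, and control replicate 3, with the highest Ddit4, stood at 0.02. Whether Ddit4 goes with this list was not tested.

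Ndrg1 (gene ID 299923), a stress-responsive growth regulator that is abundant in myelinating cells, had 96.3, 66.3 and 69.0 CPM in the controls and 103.5, 75.4 and 111.6 CPM in CIH. CIH replicates 1 and 3 lay above all controls, while CIH replicate 2 lay below control replicate 1. Controls averaged 77.2 ± 16.6 CPM and CIH libraries 96.8 ± 19.0 CPM (SD, n = 3 each). Among the 6 genes with higher fitted values, Ndrg1 had the largest, a log2 fold change of 0.33 (SE 0.20, interval -0.16 to 0.81). Leaving out 1 library moved it between 0.21 (without CIH replicate 3) and 0.52 (without control replicate 1), and no such fit called it (adjusted p of at least 0.903).

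Mxi1 (gene ID 25701) encodes a MAX-binding repressor that opposes MYC. It had 96.7, 75.2 and 71.1 CPM in the controls and 101.8, 75.5 and 87.8 CPM in CIH. Control replicate 1 lay above 2 of the 3 CIH libraries, and its log2 fold change was 0.13 (SE 0.16, interval -0.26 to 0.52). Leaving out 1 library moved it between 0.0074 (without CIH replicate 1) and 0.27 (without control replicate 1). It was 0.04 when control replicate 3 was left out, 0.07 for control replicate 2 and 0.23 for CIH replicate 2. Ndrg1 and Mxi1 shared the same 3 high libraries: control replicate 1, CIH replicate 1 and CIH replicate 3. The root mean square difference of their centred log2 CPM over the 6 libraries was 0.16, the third smallest of the 45 pairs.

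Oligodendrocyte markers followed this order in part. All 10 tested markers, among them the myelin genes Mbp at 0.45 (SE 0.40) and Mag at 0.41 (SE 0.35), had higher fitted values in CIH, and none was called or at 0 in any library. Their summed level was 11715, 4497 and 4264 TPM in control replicates 1, 2 and 3 and 7492, 8034 and 10916 TPM in CIH replicates 1, 2 and 3. The controls with the lowest sums, replicates 2 and 3, also had the lowest Ndrg1, and the libraries with the highest sums, control replicate 1 and CIH replicate 3, were among the 3 highest for Ndrg1. CIH replicate 2 had a larger sum than CIH replicate 1 but less Ndrg1 and Mxi1. The part of oligodendrocyte content in the Ndrg1 and Mxi1 values was not tested.

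**Figure D3:**
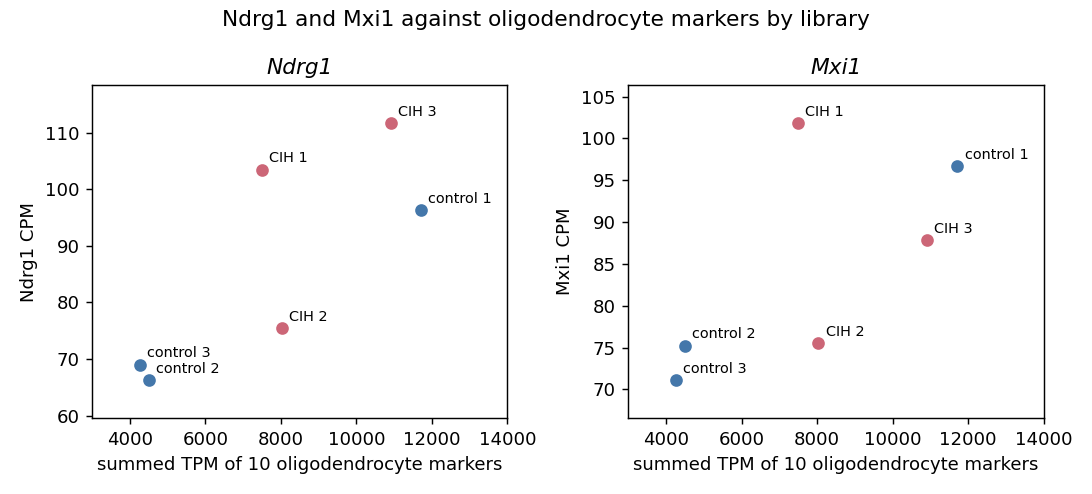
Each point is 1 library, with the summed TPM of 10 oligodendrocyte markers on the horizontal axis and Ndrg1 (left) or Mxi1 (right) CPM on the vertical axis, controls in blue and CIH in red. Control replicates 2 and 3 sit at the lower left of the Ndrg1 panel and control replicate 1 lies to the right with the CIH libraries.

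Among the relatives of these growth regulators, 0 of 3 other NDRG genes were called. The astrocyte gene Ndrg2 stood at 0.26 (SE 0.15) and Ndrg3 at 0.20 (SE 0.18). Of 10 tested genes of the MYC and MAX network, 0 were called, with 3 higher and 7 lower. Myc itself, the growth-promoting factor that Mxi1 opposes, had 6.95, 6.83 and 8.16 CPM in the controls and 5.66, 4.17 and 5.71 CPM in CIH. The groups did not overlap, with a log2 fold change of -0.50 (SE 0.19), but the edgeR test gave an adjusted p of 1.00. Myc is named for the smallest p of the 10. It was the only 1 of them without overlap, and 2.65% of all genes were lower in CIH without overlap. Mxd1, another MAX-binding repressor, stood at 0.25 (SE 0.15).

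Kdm3a (gene ID 312440) encodes a JmjC histone demethylase that removes a repressive methyl mark and itself needs oxygen. It had 52.8, 47.6 and 45.7 CPM in the controls and 56.6, 53.6 and 55.8 CPM in CIH. Every CIH library lay above every control, as in 3.05% of all genes, and the gap between the nearest libraries ran from 52.8 to 53.6 CPM. The control mean was 48.7 ± 3.69 CPM and the CIH mean 55.3 ± 1.57 CPM (SD, n = 3 each). This was a log2 fold change of 0.18 (SE 0.10, interval -0.05 to 0.42). The exact two-sided permutation test gave p = 0.1, the smallest that 3 against 3 libraries allow, and the edgeR test an adjusted p of 1.00. Complete separation of the groups always gives this permutation p, so it adds nothing to the lack of overlap. On the authors' TPM scale the groups overlapped, with 22.30, 20.73 and 19.75 TPM in the controls against 25.32, 21.37 and 23.72 TPM after CIH, so the separation held in CPM and not in TPM. Of 10 other histone demethylase genes listed, 7 had higher and 3 lower values, with a median of 0.02 and none called. Kdm4d had 0, 35.87 and 0 estimated counts in the controls and 44.84, 0 and 42.89 in CIH, so 3 of the 6 libraries were at 0 and no fold is given. Kdm1a stood at -0.10 (SE 0.11).

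Adm (gene ID 25026) encodes adrenomedullin, a secreted vasodilator peptide. It was scarce, with 27, 18 and 11 counts in the controls and 19, 19 and 23 in CIH. All 3 CIH libraries lay within the control range, and the exact Poisson 95% intervals of the lowest count (5.49 to 19.7) and the highest (17.8 to 39.3) met. These intervals cover counting error only. The log2 fold change was 0.19 (SE 0.40, interval -0.76 to 1.13), so at this depth a doubling lay within the interval. Leaving out 1 library moved it between -0.10 (without control replicate 3) and 0.57 (without control replicate 1).

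Of 9 listed genes for adrenomedullin receptors and related peptides, 6 were tested, with 3 higher, 3 lower and none called. Ramp2, the accessory protein that turns the calcitonin-receptor-like receptor into an adrenomedullin receptor, stood at -0.47 (SE 0.29), and Ramp1, its counterpart for the peptide CGRP, at -0.32 (SE 0.50). Ramp2 had 14.5, 24.2 and 24.5 CPM in the controls and 11.9, 20.8 and 12.9 CPM in CIH. Its groups overlapped through control replicate 1 and CIH replicate 2.

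P4ha1 (gene ID 64475) and P4ha2 (gene ID 360526) encode the catalytic alpha subunits of collagen prolyl 4-hydroxylase, which gives the collagen triple helix its stability. P4ha1 had 51.4, 40.8 and 60.3 CPM in the controls and 42.4, 45.8 and 48.4 CPM in CIH. All CIH values lay within the control range, and the log2 fold change was -0.16 (SE 0.16, interval -0.53 to 0.21). Leaving out 1 library moved it between -0.30 (without control replicate 2) and -0.02 (without control replicate 3).

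P4ha2 had 32.6, 31.4 and 31.9 CPM in the controls and 30.6, 27.7 and 29.9 CPM in CIH. Every CIH library lay below every control, as in 2.65% of all genes. The control mean was 32.0 ± 0.583 CPM and the CIH mean 29.4 ± 1.53 CPM (SD, n = 3 each). This was a log2 fold change of -0.12 (SE 0.10, interval -0.35 to 0.11). The exact two-sided permutation test gave p = 0.1, again the smallest possible, and the edgeR test an adjusted p of 1.00. This permutation p, too, follows from the lack of overlap. In TPM the groups overlapped, with 43.74, 43.17 and 41.32 TPM in the controls against 45.14, 35.99 and 43.20 TPM after CIH, and CIH replicate 1 was the highest of all. P4ha1 stood at 0.963, 0.755 and 1.19 times P4ha2 in TPM in the controls and at 0.759, 0.986 and 0.895 times in CIH, and the groups overlapped.

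Of 13 other genes tested for collagen hydroxylation, folding and cross-linking, 0 were called, with 6 higher and 7 lower. P3h3, a collagen prolyl 3-hydroxylase family gene, had 56.1, 74.3 and 54.5 CPM in the controls and 47.6, 51.7 and 45.7 CPM in CIH. Its groups did not overlap, with a log2 fold change of -0.35 (SE 0.14). P3h3 is named for the smallest p of the 13. It was the only 1 of them without overlap, and 2.65% of all genes were lower in CIH without overlap. The collagen chaperone gene Serpinh1 stood at -0.18 (SE 0.12). Of 10 collagen chain genes, 5 were higher and 5 lower, with Col5a2 at -0.48 (SE 0.30) and Col6a1 at -0.25 (SE 0.27). Collagen chains, which the hydroxylases act on, summed to 156.66 to 169.28 TPM in the controls and 129.76 to 178.34 TPM in CIH.

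Ankrd37 (gene ID 361149), a small ankyrin-repeat protein gene with a strong hypoxia response in cultured cells, had 35, 17 and 17 counts in the controls and 11, 9 and 24 in CIH. CIH replicates 1 and 2 lay below all controls, and CIH replicate 3 lay between them. Its log2 fold change was -0.58 (SE 0.51, interval -1.79 to 0.64), the largest in size of the 10 and toward lower values in CIH. The exact Poisson 95% intervals of the lowest count (4.12 to 17.1) and the highest (24.4 to 48.7) did not meet, while those of the 3 controls did. These intervals cover counting error only. The 2 counts were picked as the extremes of all 6 libraries, so this is no comparison of the groups. Leaving out 1 library moved the log2 fold change between -1.11 (without CIH replicate 3) and -0.12 (without control replicate 1), with -0.29 without CIH replicate 2.

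Set side by side over the libraries, the 10 genes did not move as a unit. Highest values were spread over control replicate 1 (3 genes), control replicate 3 (3), CIH replicate 1 (3) and CIH replicate 3 (1). Lowest values fell in control replicate 1 (3), control replicate 3 (3), control replicate 2 (2) and CIH replicate 2 (2). The mean deviation of the 10 genes was 0.14, -0.10 and -0.07 log2 units in control replicates 1, 2 and 3 and 0.05, -0.14 and 0.12 in CIH replicates 1, 2 and 3. By this mean the lowest library was CIH replicate 2 and the highest was control replicate 1, and the groups overlapped.

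**Figure D4:**
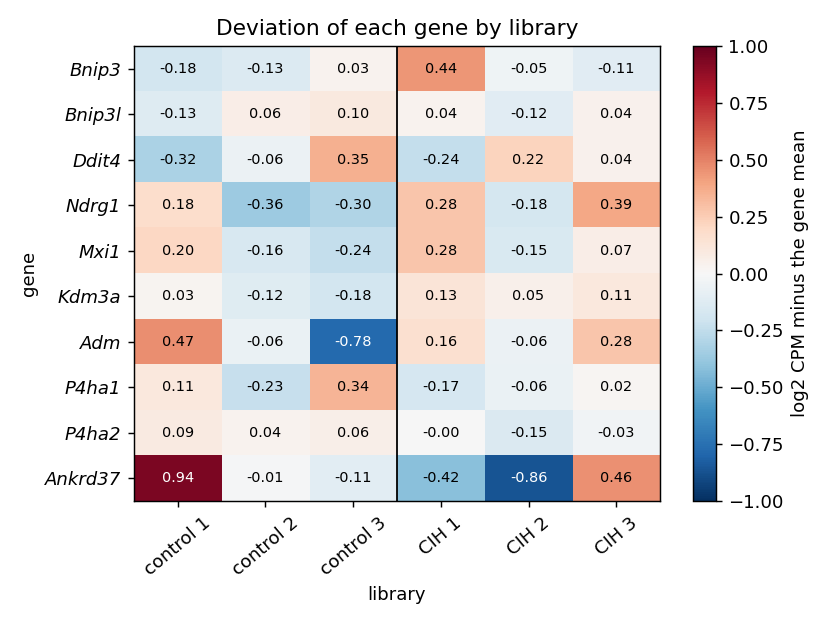
Colour and numbers give each gene's log2 CPM minus its mean over the 6 libraries, with controls left and CIH right of the line. The largest deviations are those of Ankrd37 (0.94 in control replicate 1 and -0.86 in CIH replicate 2), and rows differ in which library is high.

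Ankrd37 and Adm had the widest ranges over the libraries, 1.80 and 1.24 log2 units. Of 11154 genes with a mean log2 CPM above 3, those with the centred profile closest to Ankrd37 were LOC108349917 and Tiam1, a Rac exchange factor gene, at root mean square differences of 0.24 and 0.26 log2 units over 6 libraries. The closest to Adm were Il17d, a cytokine gene, and Shb, an adaptor protein gene, at 0.09 and 0.11. With so few libraries and so many genes, close profiles are a description only.

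Other parts of the oxygen pathway gave the following values in the same fit. Of 10 HIF subunit and regulator genes, 5 were higher and 5 lower, with a median of 0.0029 and none called. Epas1, which encodes HIF-2 alpha, stood at 0.25 (SE 0.12), and Hif3a at 0.23 (SE 0.25). Of 18 glycolysis and lactate targets, 7 were higher and 11 lower, with a median of -0.01. The lactate exporter gene Slc16a3 stood at 0.49 (SE 0.26) and the hexokinase gene Hk2 at 0.22 (SE 0.18). Of 9 tested vascular, iron and other targets outside the 10, 8 were higher and 1 lower, with a median of 0.28, beside 50.6% of all genes higher. The groups did not overlap for 4 of these 9, beside 5.70% of all genes, and 3 of the 4 were higher, beside 3.05%. Vegfa and the VEGF receptor gene Flt1 had the smallest p of this list. None was called by edgeR, and whether these lists differ from the 10 genes was not tested. Beside the vascular targets, all 9 tested endothelial markers had higher fitted values in CIH, where 50.6% of all genes did. Flt1 is in both lists. For 4 of the 9, every CIH library lay above every control, beside 3.05% of all genes, and none was called. The 9 markers summed to 301.01, 249.17 and 221.84 TPM in control replicates 1, 2 and 3. In CIH replicates 1, 2 and 3 they summed to 325.62, 325.37 and 277.31 TPM. Their mean deviation was -0.17, -0.06 and -0.14 log2 units in control replicates 1, 2 and 3. In CIH replicates 1, 2 and 3 it was 0.48, -0.05 and -0.07. By this mean CIH replicate 1 stood far above the rest, while by summed TPM it was level with CIH replicate 2.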

How the data were processed

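Per the labels' protocols, TRIzol-extracted RNA was read on BGISEQ-500 or MGISEQ-2000 machines. Of the tools named in the submitters' processing notes (RSEM 1.2.12, HISAT2 2.2.0, Bowtie2 2.2.5; build Rnor_6.0), the role of each is not stated there. The sources used here name no annotation and do not say whether counting used strand. Per the file headers, the deposited table holds estimated counts, TPM and FPKM for each library. The deposited estimated counts were rounded (16% of values were not whole) and then fitted in edgeR 4.0.16 (R 4.3.3) by its quasi-likelihood test with TMM factors and filterByExpr, over all 17935 genes that passed. The authors' TPM served for levels between genes and, with limma 3.58.1 and a pseudocount of 1 or 0.1, for alternatives. The authors' FPKM values were not used. The small RNA table was not used here.

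Intervals are 95% intervals of the same fit. SE is the fold change divided by the square root of F. DESeq2 1.42.0, RLE factors, no filter, a replicate block and leaving out each library were alternatives. Every 2 libraries differed beyond sampling noise (chi-square per degree of freedom of at least 6.67). Named genes are the 10, the 2 genes of smallest p in each list, and a few tissue markers. The members and lists were chosen with earlier results of these data known. The fit was checked on simulated counts, with changes larger than any fitted for the 10 genes. That check does not cover changes as small as theirs. Promoter windows come from RefSeq (GRCr8), matched by gene identifier. Figures used matplotlib 3.10.9 in Python 3.11.15.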

Additional observations from a re-analysis of the deposited data

How the results depend on the processing

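None of the 10 genes was called under any of the 12 alternatives, where the smallest adjusted p was 0.903. Over all genes edgeR called 0, DESeq2 called 10, limma on TPM called 1 with either pseudocount, and leaving out 1 library gave 0 to 1. The number of the 10 without overlap between the groups was 2 in CPM, beside 5.70% of all genes, and 0 in TPM, beside 6.07%. No pseudocount enters this count. It was 2 to 6 when 1 library was left out, beside 9.79% to 22.4% of all genes. The 6 came without control replicate 1, where 22.4% of all genes did not overlap. Fewer libraries make separation easier by construction; the cause of the difference between CPM and TPM was not tested. The number with a higher fitted value was 5 or 6 throughout, and their median log2 fold change ran from 0.0072 (without CIH replicate 1) to 0.12 (without CIH replicate 2). Of 120 single-gene values, 9 had the opposite sign, all in Ddit4, Bnip3l and Adm. Ddit4 stood at -0.0034 with RLE factors and -0.0036 with DESeq2, and ran from -0.14 to 0.20 over the left-out libraries, Bnip3l from -0.090 to 0.026 and Adm from -0.10 to 0.57. With the replicate block the median was 0.07 and 0 genes were called. Deviations from the group mean correlated at -0.222, -0.0457 and -0.176 between libraries of equal number, so the numbers were not taken as a pairing. Depth limits Ankrd37 and Adm, with 9 to 35 and 11 to 27 counts per library.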
